A study of Mus musculus with 4 samples.

Results

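The NK and ILC1-like cells of the mouse submandibular gland (SMG) and sublingual gland (SLG) were 460 of 15707 cells, a share of 2.93% (95% exact binomial interval 2.67 to 3.20%). They were selected on measured transcript numbers. A cell was a member when it held at least 2 UMIs (unique molecular identifiers, 1 per captured transcript) of *Nkg7*, at least 1 UMI of *Klrb1c* or *Ncr1*, no UMI of *Cd3e*, *Cd3d* or *Cd3g*, at most 2 UMIs of *C1qa*, *C1qb* and *C1qc* together, and less than 30% of its UMIs from *Mucl2*. *Nkg7* encodes a cytotoxic granule membrane protein, *Klrb1c* the NK1.1 receptor and *Ncr1* the activating receptor NKp46. The *Cd3* genes mark T cells, the *C1q* genes mark resident macrophages, and *Mucl2* is a secretory product of the salivary acini. The glands were freshly digested from wild-type female C57BL/6N mice of 6 to 8 weeks in a physiological state, without treatment, and were profiled by droplet-based single-cell RNA-seq. The labels list 4 samples of this 1 group, and each label names 2 mice. Whether these are the same 2 mice is not said, and the study's methods name another number of mice. All samples came in 1 matrix with 1 barcode suffix, so no cell could be assigned to a sample, gland or mouse, and the whole matrix was treated as 1 sample. No p-value was computed, since cells of 1 sample are not replicates. Every interval below covers counting error only, and UMIs of a gene that cluster in few cells spread more widely than a Poisson interval shows.

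Natural killer (NK) cells and type 1 innate lymphoid cells (ILC1) are lymphocytes without rearranged antigen receptors. Both read signals on target cells through activating and inhibitory receptors, kill through granules that hold perforin and granzymes, and release interferon-gamma and chemokines. Circulating NK cells depend on the transcription factor EOMES and are marked by the integrin CD49b, whereas ILC1 stay in tissue and typically carry the integrin CD49a and TRAIL. The salivary glands are known for resident innate lymphocytes that combine features of both, and TGF-beta signalling is known to shape them.

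The rule genes themselves describe the choice and test nothing. *Nkg7* ranged from 2 to 19 UMIs per member with a median of 4. *Klrb1c* was seen in 306 members (66.5%), *Ncr1* in 276, and 122 members (26.5%) held both. The 110 members with exactly 2 *Nkg7* UMIs lay just inside the threshold and had a *Ccl5* level of 34.8 UMIs per 10000 (95% Poisson interval 32.5 to 37.2). The 79 cells just outside it, with 1 *Nkg7* UMI, had 22.1 (20.2 to 24.2). For *Xcl1* the same 2 levels were 15.9 and 10.8, and for *Gzmb* 8.05 and 3.02. A further 344 cells had enough *Nkg7* but no UMI of either receptor gene, and their levels of *Xcl1* (17.6, 16.7 to 18.5) and *Gzmb* (7.80, 7.22 to 8.40) had intervals that overlapped those of the members (18.1, 17.4 to 18.9, and 8.30, 7.77 to 8.85). Their *Ctsw* level was lower (8.01, 7.43 to 8.63, against 9.94, 9.37 to 10.5), as was *Ccl5* (29.8 against 35.1). Another 32 cells were kept out by a single *Cd3* UMI and 44 by more. Their *Ccl5* levels were 38.9 (34.5 to 43.7), which overlapped the members' interval (34.1 to 36.3), and 52.3 (48.3 to 56.6), which lay above it.

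3 groups of the same matrix served for comparison. The Cd3-positive cells (157) held at least 2 *Cd3* UMIs under the same limits for *C1q* and *Mucl2*. The C1q macrophages (956) held at least 10 *C1q* UMIs, no *Cd3* UMI, fewer than 2 *Nkg7* UMIs and less than 30% of UMIs from *Mucl2*. The Mucl2-rich cells (6682) took 30% or more of their UMIs from *Mucl2*. These last 2 groups should lack NK genes, and they serve as a background that includes free RNA of the droplets. This background can be too low, since macrophages with more *Nkg7* or with *Cd3* were left out. The Mucl2-rich cells were also deeper, so free RNA can be a smaller part of their UMIs. The Cd3-positive group was not a clean T cell group. *Trac*, the constant part of the T cell receptor alpha chain, was seen in 38 of its 157 cells, and 44 (28.0%) met the NK part of the rule. A stricter group of 74 cells, chosen after the data were seen, held a *Cd3* UMI together with a UMI of *Trac*, *Cd4*, *Cd8a*, *Cd8b1*, *Cd5*, *Cd6*, *Tcrg-C1* or *Tcrg-C2*. Of these 74 cells, 10 met the NK part of the rule.

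The members held 1377 to 27093 UMIs, with quartiles of 1608, 1967 and 2532 and a median of 771 genes, against medians of 2131 UMIs in Cd3-positive cells, 2191 in macrophages and 3644 in Mucl2-rich cells. No cell had fewer than 1000 UMIs, so every cell was thinned to 1000 UMIs wherever shares of cells are compared. The median mitochondrial share was 2.51%. *Mucl2* made up 8.35% of the members' UMIs and 57.05% of those of the Mucl2-rich cells. 26 members were deeper than 5000 UMIs. They held 17.3% of the members' UMIs but 81.8% of their *Klk1*, a kallikrein of the gland's ducts, and 58.7% of their *Krt18*, an epithelial keratin, against 7.94% of their *Nkg7*. The *Klk1* level was 94.4 UMIs per 10000 over all members and 20.8 without these 26. Likewise 11 Cd3-positive cells over 5000 UMIs held 29.9% of that group's UMIs. No doublet caller was run, and whether the deep cells are droplets with more than 1 cell was not tested. The lists compared with Cd3-positive cells are also given without the deep cells.

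Transcripts typical of NK and ILC1 cells were far more frequent in members than in macrophages and Mucl2-rich cells. After thinning, *Ccl5*, a chemokine of cytotoxic lymphocytes, was seen in 73.0% of members, 66.9% of Cd3-positive cells, 7.74% of macrophages and 4.73% of Mucl2-rich cells. *Klrd1*, the CD94 chain of the NKG2 receptors, was seen in 52.6% of members, 0.837% of macrophages and 1.12% of Mucl2-rich cells. *Il2rb*, the receptor chain that binds IL-15, was seen in 39.8% against 0.105% and 0.868%. Markers of other immune cells were uneven in members. Of 12 myeloid genes, 4 (*Adgre1*, *Flt3*, *Xcr1*, *Cd209a*) had no UMI in members, and *Lyz2* had 3 and *Csf1r* 1. But *Cst3* had 202 UMIs, *Apoe* 117, *Cd74* 52 and *H2-Ab1* 21, and 46.1% of members held a UMI of the list without thinning. The summed level of the list was 3.73 UMIs per 10000 in members and 724 in macrophages. Of 9 B cell and plasma cell genes, 5 had no UMI. *Ighm*, an IgM heavy chain gene, had 120, and 27.2% of members held a UMI of that list without thinning. Of 9 genes of ILC2 and ILC3, 6 had none, including *Il22*, *Il17a*, *Il13* and *Il5*. *Gata3* had 25, and 6.96% of members held a UMI of that list without thinning. A count of 0 among the members' 1123365 UMIs allows a level of up to 0.0328 per 10000. The summed level of 10 epithelial genes was 8.55 in members, 11.9 in Cd3-positive cells, 6.00 in macrophages and 6.79 in Mucl2-rich cells, and the 26 deep members held 59.6% of it.

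**Figure D1:**
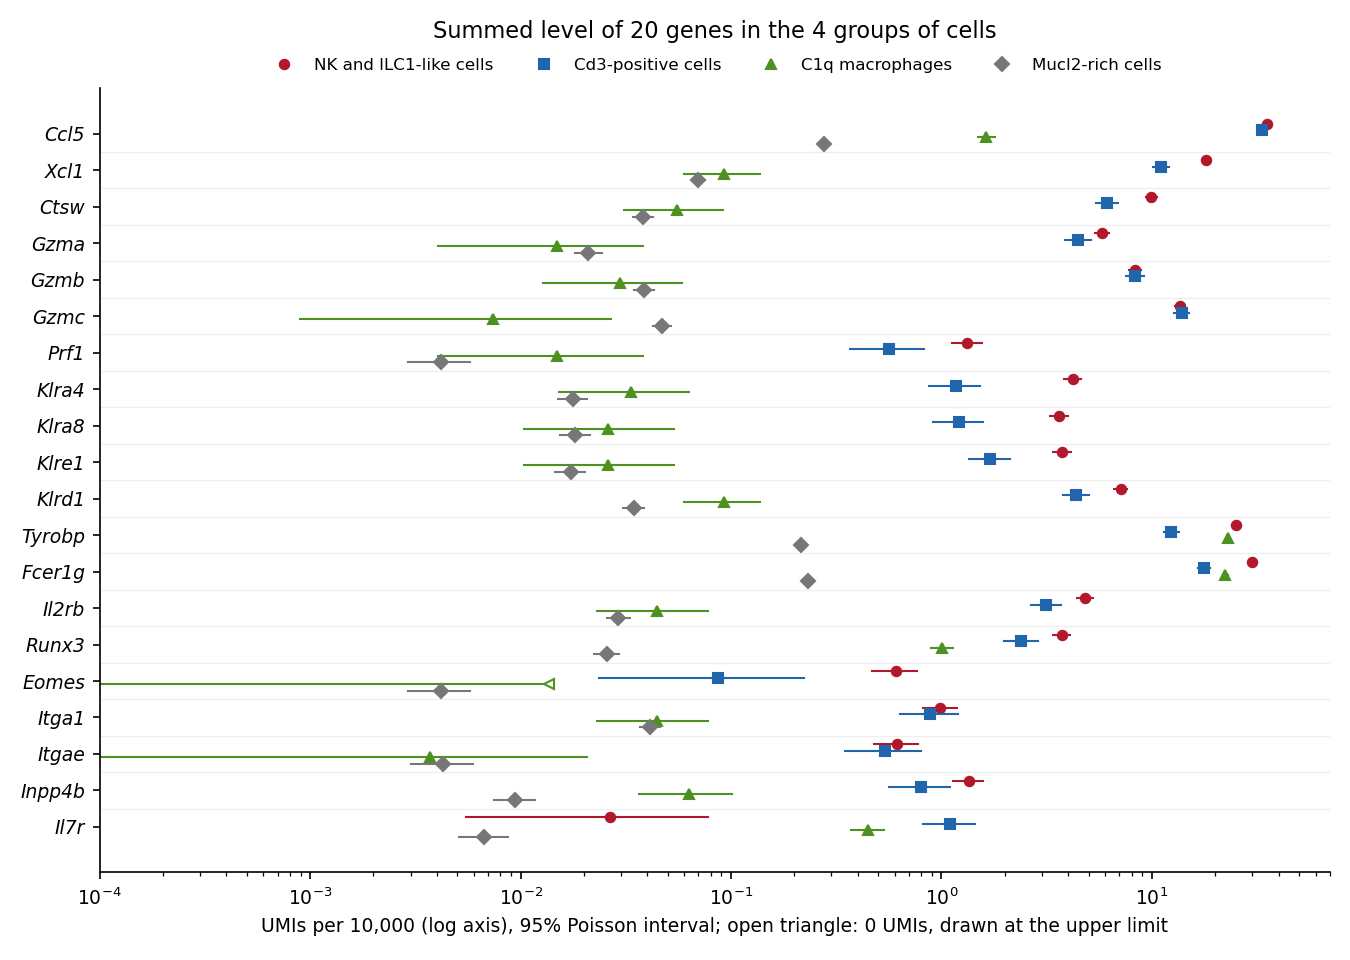
Summed level of 20 genes in the 460 NK and ILC1-like cells, 157 Cd3-positive cells, 956 C1q macrophages and 6682 Mucl2-rich cells. The horizontal log axis gives UMIs per 10000 with 95% Poisson intervals, cut at the left edge, and an open triangle marks 0 UMIs at its upper limit. The cytotoxic and Ly49 genes were near or above 1 in members and under 0.1 in macrophages and Mucl2-rich cells, while *Il7r* was lower in members than in Cd3-positive cells and macrophages.

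Among genes outside the rule, those with the largest ratio to all other cells of the matrix were receptor and granule genes. With at least 100 UMIs required in members, the 15 largest were *Klra7*, *Prf1*, *Klra3*, *Klra1*, *Gzma*, *Klre1*, *Sh2d2a*, *Serpina3g*, *Ms4a4b*, *Cst7*, *Ctsw*, *Klra4*, *Gimap3*, *Xcl1* and *Klra8*. Their levels were 54.4-fold (*Klra8*) to 66.6-fold (*Klra7*) those of all other cells. *Sh2d2a* encodes a T cell and NK cell adaptor, *Cst7* the granule protease inhibitor cystatin F, and *Ms4a4b* a membrane protein of T and NK cells. Since members were selected on *Nkg7* and NK receptors, this order describes them and was not tested.

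The granule genes were expressed unevenly from cell to cell. *Gzmb*, which encodes the caspase-activating granzyme B, was seen in 45.7% of members without thinning and in 35.0% after it. *Gzmc*, a granzyme of mouse killer cells that lies beside *Gzmb*, was seen in 43.3% and 35.4%. *Gzma*, a tryptase granzyme, was seen in 16.7% and 14.6%. In macrophages the thinned shares of these genes were 0.314%, 0 of 956 cells (which allows up to 0.385% at the upper binomial limit) and 0.105%. The summed level of *Gzmb* did not set members apart from Cd3-positive cells. It was 8.30 (7.77 to 8.85) in members and 8.32 (7.51 to 9.19) in Cd3-positive cells. But the 44 Cd3-positive cells that met the NK part of the rule were at 15.7 (13.5 to 18.1). The level of the other Cd3-positive cells is not given apart. In the 74 stricter T cells the *Gzmb* level was 4.32, lower than in members. *Prf1*, the pore-forming perforin, was seen in 12.8% of members after thinning, against 7.01% of Cd3-positive cells. *Ctsw*, a protease of cytotoxic cells, was broad, at 64.1%. *Gzmk* (3 UMIs) and *Gzmm* (2 UMIs) were almost absent.

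The plot of UMIs per cell shows how these transcripts were spread. *Gzma* was absent from 83.3% of members, yet 37 members had 6 or more UMIs and held 84.8% of all *Gzma* UMIs, with a highest value of 52 in 1 cell. *Gzmc* reached 87 UMIs, and the 92 members with 6 or more held 85.2% of its UMIs. *Gzmb* was less concentrated, with 54 such members holding 58.0%. *Prf1* never exceeded 4 UMIs and *Eomes* never exceeded 3. *Ctsw*, by contrast, was seen in 88.3% of members, mostly at 2 to 5 UMIs (56.3%).

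**Figure D2:**
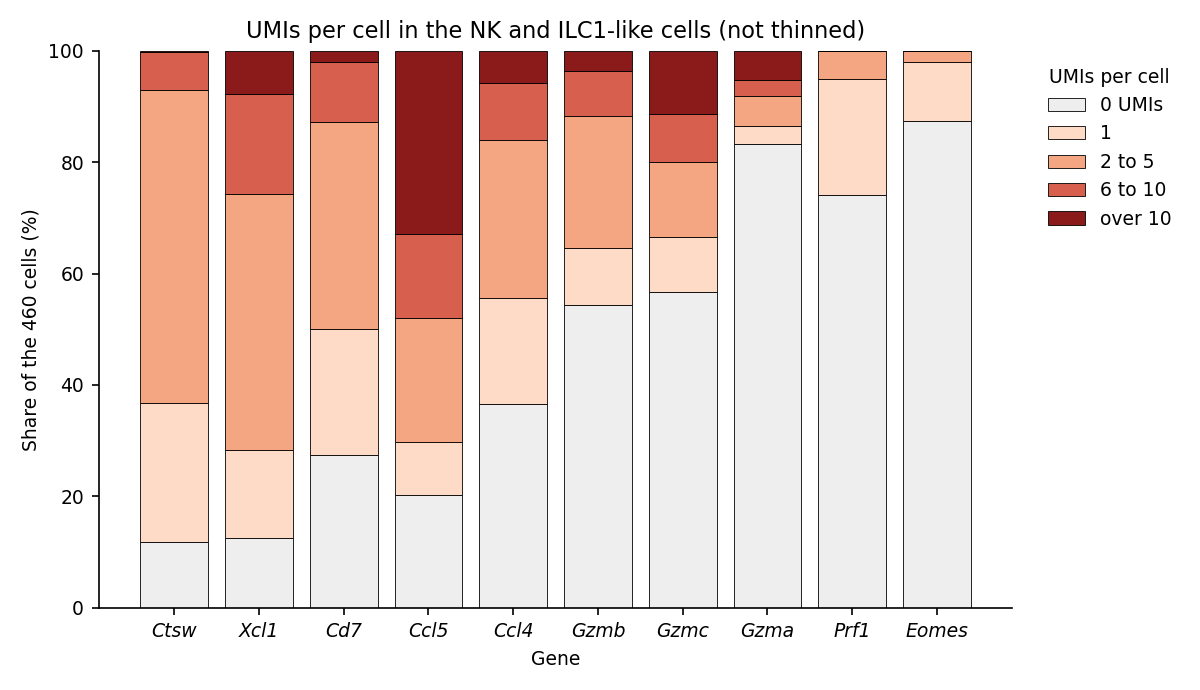
Share of the 460 NK and ILC1-like cells (vertical axis, %) by number of UMIs, without thinning, for 10 genes. *Gzma* was absent from 83.3% of cells but above 10 UMIs in 5.22%, while *Ctsw* was above 10 UMIs in 0.217%.

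The genes of this granule programme and of the rule have known upstream sequences. They are shown because *Gzmb* and *Gzmc* were often seen in the same members, 54 of the 67 members with *Gzma* after thinning had no *Gzmc*, and *Nkg7* and *Ncr1* defined the cells. The windows are the 250 bases before the RefSeq start (GRCm38.p6), read along the gene's strand: chr7:43436888-43437137 for *Nkg7* and chr7:4337465-4337714 for *Ncr1* (plus strand), and chr13:113100982-113101231 for *Gzma*, chr14:56262335-56262584 for *Gzmb* and chr14:56234658-56234907 for *Gzmc* (minus strand). For *Ncr1* the first of 2 listed starts was used. Capitals mark 2 motifs searched on both strands, AGGTGTGA (TCACACCT on the other strand), a T-box motif of the family of TBX21 and EOMES, and TGTGGT, read as ACCACA on the other strand, a core motif of RUNX factors. The T-box letters were in 1.12% of 32851 windows of this length and the RUNX letters in 14.05%. *Nkg7* held 1 T-box and 1 RUNX match. GENCODE M21 starts *Nkg7* earlier, at position 43437073, so the T-box letters precede the RefSeq start but lie inside the GENCODE gene. *Ncr1*, *Gzmb* and *Gzmc* held 2 RUNX matches each, and *Gzma* held 1. A match describes letters only and is no evidence of binding.
Nkg7: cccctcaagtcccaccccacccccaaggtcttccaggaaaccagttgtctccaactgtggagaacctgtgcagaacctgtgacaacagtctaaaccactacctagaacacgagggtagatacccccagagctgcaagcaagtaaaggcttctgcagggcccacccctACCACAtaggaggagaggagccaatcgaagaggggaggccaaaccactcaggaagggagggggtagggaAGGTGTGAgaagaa
Ncr1: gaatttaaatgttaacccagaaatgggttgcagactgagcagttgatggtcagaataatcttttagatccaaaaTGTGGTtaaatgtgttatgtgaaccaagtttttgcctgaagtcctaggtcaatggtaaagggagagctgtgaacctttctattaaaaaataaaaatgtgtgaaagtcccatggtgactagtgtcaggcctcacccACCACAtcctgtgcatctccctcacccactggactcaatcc
Gzma: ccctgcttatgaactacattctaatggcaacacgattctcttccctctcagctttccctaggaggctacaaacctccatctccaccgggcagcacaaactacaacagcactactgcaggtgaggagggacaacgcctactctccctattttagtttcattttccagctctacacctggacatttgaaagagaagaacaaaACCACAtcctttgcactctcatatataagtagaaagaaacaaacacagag
Gzmb: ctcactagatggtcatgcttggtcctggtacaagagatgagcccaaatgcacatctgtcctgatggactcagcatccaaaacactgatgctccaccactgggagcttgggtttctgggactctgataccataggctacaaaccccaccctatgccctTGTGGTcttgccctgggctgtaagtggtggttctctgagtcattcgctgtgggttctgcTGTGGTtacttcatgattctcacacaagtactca
Gzmc: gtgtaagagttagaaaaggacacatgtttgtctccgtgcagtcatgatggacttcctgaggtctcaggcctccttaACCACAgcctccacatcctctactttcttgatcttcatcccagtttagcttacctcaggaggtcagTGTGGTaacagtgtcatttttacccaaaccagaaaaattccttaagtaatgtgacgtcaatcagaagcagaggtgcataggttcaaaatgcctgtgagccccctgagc

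In GENCODE M21 on GRCm38 (mm10), *Gzmb* (chr14:56258838-56262260) and *Gzmc* (chr14:56231441-56234656) are neighbours on the minus strand, and *Gzma* (chr13:113093825-113100981) lies on another chromosome. In the last 500 bases of their longest transcripts, no window of 90 bases was shared between these granzymes or with another gene.

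Members with *Gzmc* differed from members without it in other transcripts. At 1000 UMIs per cell, 163 members had a *Gzmc* UMI and 297 had none, with median depths of 2038 and 1927 UMIs. *Gzmb* was seen in 62.0% of the first (95% exact binomial interval 54.0 to 69.4%) and 20.2% of the second (15.8 to 25.2%). *Gzma* went the other way, at 8.0% (4.3 to 13.3%) and 18.2% (13.96 to 23.05%). *Itgae*, the integrin CD103 that holds lymphocytes at epithelium, was seen in 11.7% (7.2 to 17.6%) and 2.4% (1.0 to 4.8%). *Cd7*, a surface glycoprotein of T and NK cells, was seen in 67.5% and 46.1%, and *Rgs1*, a G-protein regulator common in tissue-resident lymphocytes, in 69.3% and 48.1%. *S100a4* (54.0% and 29.3%), *S100a6* (79.8% and 58.9%) and the galectin *Lgals3* (34.4% and 18.5%) were also more frequent with *Gzmc*, while the galectin *Lgals1* (13.5% and 48.1%) and *Crip1* (49.7% and 64.6%) were less frequent. Of 2282 genes seen in at least 20 members, the intervals did not overlap and the share was higher for 21 (0.92%) and lower for 9 (0.394%). Among 99 of these genes that belong to the lists, 6 were higher (*Ccl4*, *Cd7*, *Ctsw*, *Gzmb*, *Itgae*, *Rgs1*) and 1 lower (*Gzma*). The split by *Gzmc* was chosen after its values were seen. *Itga1* did not separate after thinning (9.8% and 8.8%), but at full depth the split itself changes, to 199 members with *Gzmc* and the rest without. *Itga1* was then in 27.1% and 14.9%, and *Gzmb* in 72.4% and 25.3%.

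The members were also split by *Gzma*. The 67 members with a *Gzma* UMI were shallower than the other 393, with medians of 1673 and 1997 UMIs before thinning. *Ccl5* was seen in 94.0% of them (85.4 to 98.3%) and 69.5% of the rest (64.7 to 74.0%), and *Lgals1* in 53.7% (41.1 to 66.0%) and 32.8% (28.2 to 37.7%). *Pim1*, a survival kinase, was seen in 20.9% and 8.4%, and *Satb1*, a chromatin organiser, in 17.9% and 5.1%. *Gzmc* was seen in 19.4% and 38.2%, *Rgs1* in 31.3% (20.6 to 43.8%) and 59.8% (54.8 to 64.7%), and *Ctsd*, a lysosomal protease, in 25.4% and 42.7%. *Gzmb* did not separate, at 40.3% and 34.1%. The intervals of *Eomes* (14.9% and 6.9%), *Irf8* (38.8% and 24.9%), *Runx3* (20.9% and 32.8%) and *Itga1* (4.5% and 9.9%) overlapped. At full depth, where 77 members had *Gzma*, *Runx3* was in 32.5% and 61.1% and *Itga1* in 10.4% and 22.2%. Over the 2282 genes, 10 were higher (0.438%) and 12 lower (0.526%). They included the rule gene *Ncr1* (49.3% and 31.3%), and also *Rps27rt*, *Ndufa13*, *Ndufs5* and *Psmd4*. The same split by *Eomes* gave 7 higher and 4 lower genes, and by *Itga1* 7 higher and 1 lower. The shallower depth of the 67 cells with *Gzma* moved with the split, and its part in the shares was not tested.

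**Figure D3:**
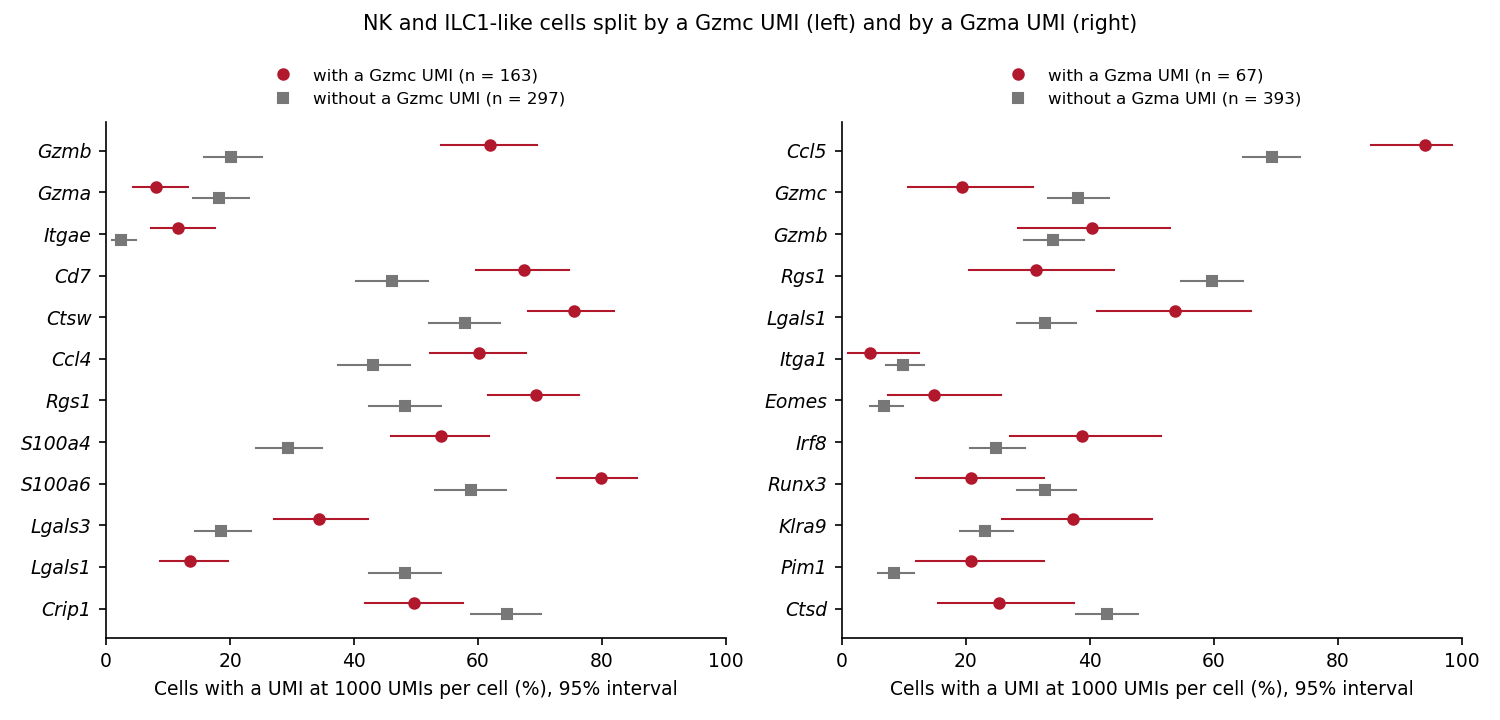
Share of NK and ILC1-like cells with a UMI of each gene at 1000 UMIs per cell (horizontal axis, %, with 95% exact binomial intervals), split by a *Gzmc* UMI (left, 163 and 297 cells) and by a *Gzma* UMI (right, 67 and 393 cells). *Gzmb* and *Itgae* were more frequent with *Gzmc*, *Lgals1* was less frequent with *Gzmc* and more frequent with *Gzma*, and the intervals of *Eomes*, *Itga1*, *Irf8* and *Runx3* overlap on the right.

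Chemokines outweighed cytokines among the secreted products. *Xcl1*, the chemokine that draws XCR1+ dendritic cells, was at 18.1 UMIs per 10000 (17.4 to 18.9) in members, 11.04 in Cd3-positive cells and 0.0927 in macrophages, and was seen in 87.4% of members without thinning. *Ccl5* was at 35.1 (34.1 to 36.3) in members and 33.5 in Cd3-positive cells. *Ccl4* (11.8) and *Ccl3* (0.935) were lower in members than in macrophages (127 and 33.7), and the part of free RNA in these was not tested. *Ifng*, the interferon-gamma gene, was seen in 5.65% of members after thinning and in 0 of 956 macrophages. *Tgfb1* was seen in 22.8% of members, 12.7% of Cd3-positive cells and 14.9% of macrophages. *Ltb*, a lymphotoxin chain, was seen in 21.1% of members, 31.8% of Cd3-positive cells and, after thinning, no macrophage. *Tnf* had 9 UMIs in members (0.0801 per 10000, against 7.40 in macrophages), and *Csf2*, *Il10*, *Il22*, *Il17a* and *Il13* had none.

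The signalling adaptors were nearly universal. *Fcer1g* was seen in 99.1% of members and *Tyrobp*, which encodes DAP12, in 98.7% without thinning (92.6% and 89.8% after it). Macrophages also carry both adaptors (90.7% and 87.4% after thinning), so these 2 genes do not separate the groups. Cd3-positive cells had them less often, at 60.5% and 51.6%. *Hcst*, which encodes the adaptor DAP10, was seen in 42.6% of members and 3.56% of macrophages. Its partner *Klrk1*, the NKG2D receptor, was seen in 21.7% and 0.523%. The inhibitory chain *Klrc1* (NKG2A) was seen in 8.04% and the activating chain *Klrc2* in 9.35% of members. Of the other inhibitory receptors, *Klrb1b* had 78 UMIs in members, and *Cd96*, with 56 UMIs, was seen in 7.17%. *Klrg1* (2 UMIs), *Pdcd1* (4 UMIs), *Lag3* (5 UMIs) and *Tigit* (6 UMIs) were close to absent, and *Havcr2* had no UMI.

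The Ly49 receptors, encoded by the *Klra* genes of the NK gene complex on chromosome 6, bind MHC class I and differ from cell to cell. After thinning, *Klra4* was seen in 30.9% of members, *Klra8* in 28.3%, *Klra9* in 25.2%, *Klra7* in 23.5%, *Klra3* in 17.4% and *Klra1* in 9.35%. In macrophages and Mucl2-rich cells each of these was seen in 0 to 0.524%. Without thinning, 91.1% of members held at least 1 of 9 *Klra* genes, 42.0% held at least 3 and 1.96% held 5. After thinning to 1000 UMIs, 78.0% held at least 1 and 14.3% at least 3. The relative *Klre1*, a receptor that pairs with *Klri2*, was seen in 31.7%. *Klra* genes resemble each other, and 8.52% of the 90-base windows at the 3′ end of *Klra3*, 10.2% of those of *Klra7* and 14.1% of those of *Klra9* were also in another *Klra* gene or pseudogene, so counts of these 3 are less certain. *Klra1*, *Klra4* and *Klra8* shared none. Among MHC class I genes, *H2-K1* was seen in 87.4% and *B2m* in 71.3% of members.

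The transcription factor genes *Eomes* and *Tbx21* were found at low levels, and *Zfp683* and *Prdm1* were close to absent. *Eomes* was at 0.605 UMIs per 10000 (0.470 to 0.767) in members and 0.0864 in Cd3-positive cells, and no macrophage had a UMI. It was seen in 58 members, 12.6% without thinning and 8.04% after it. *Tbx21*, which encodes T-bet, was at 0.570 (0.439 to 0.728) and was seen in 12.2% and 4.78%. *Zfp683*, the resident-lymphocyte factor Hobit, had 4 UMIs and *Prdm1* 1. *Runx3* was seen in 31.1% of members after thinning, *Irf8* in 26.96%, *Id2* in 25.7% and *Stat4* in 18.9%. In macrophages *Runx3*, *Irf8* and *Id2* were seen in 10.8%, 17.5% and 15.5%, and *Stat4* in 0.105%. *Rora* (12 UMIs) and *Il7r* (3 UMIs), 2 genes of helper-like innate cells and T cells, were low.

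The integrins gave a mixed picture. *Itga1*, the CD49a chain of ILC1 and resident NK cells, was seen in 20.2% of members without thinning and 9.13% after it, against 0.105% of macrophages and 0.988% of Mucl2-rich cells. *Itga2*, the CD49b chain of conventional NK cells, had 11 UMIs. *Itgae* was seen in 5.65% and *Tnfsf10*, which encodes TRAIL, in 5.22% after thinning. The chemokine receptor *Ccr2* was seen in 15.7%, *Cxcr6* in 3.91%, and the egress receptor *S1pr5* had no UMI. Of the 58 members with *Eomes*, 9 also had *Itga1* (15.5%), and *Itga1* was in 20.9% of the other members. After thinning, 1 of 37 members with *Eomes* had *Itga1* (2.7%), against 9.7% of the others. With such low levels these shares are limited by depth.

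2 sets of 12 genes were used to ask whether NK and ILC1 transcripts fell in separate cells. The NK set included *Eomes*, *Itga2*, *Itgam*, *S1pr5*, *Klra4*, *Klra8*, *Klra9*, *Zeb2*, *Irf8*, *Klf2* and *Cma1*. The ILC1 and residency set held *Itga1*, *Tnfsf10*, *Cd200r1*, *Cxcr6*, *Il7r*, *Itgae*, *Cd69*, *Rgs1*, *Zfp683*, *Inpp4b*, *Tmem176a* and *Tmem176b*. At 1000 UMIs per cell, 237 members (51.5%, 46.8 to 56.2%) had UMIs of both sets, 103 (22.4%) of the NK set only, 86 (18.7%) of the ILC1 set only and 34 (7.4%) of neither. ILC1-set genes were seen in 69.7% of members with an NK-set gene and in 71.7% of the others. But 37.6% of macrophages also had both, since they express several of these genes. With genes left out whose macrophage level was at least 0.5 times that of members, a choice made after the data were seen, 7 NK genes and 6 ILC1 genes (*Itga1*, *Tnfsf10*, *Cxcr6*, *Itgae*, *Zfp683*, *Inpp4b*) remained. Both narrowed sets were then seen in 80 members (17.4%, 14.04 to 21.2%), 12.7% of Cd3-positive cells and 0.105% of macrophages. The narrowed NK set alone was seen in 47.6% of members, the ILC1 set alone in 11.7%, and neither in 23.3%. Within these sets the ILC1 genes were in 26.8% of members with an NK gene and 33.5% of those without. The share with both rose with depth to 76.7% for the full sets without thinning (41.1% for the narrowed sets), so no share here counts cell types.

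T cell receptor transcripts were present in the members although no *Cd3* UMI was. After thinning, 140 members (30.4%, 26.3 to 34.9%) had a UMI of *Trac*, *Trbc1* or *Trbc2*, against 53.5% of Cd3-positive cells, 0.314% of macrophages and 1.03% of Mucl2-rich cells. Without thinning the share was 54.3%. Nearly all of it came from the beta constant genes. *Trbc1* was seen in 21.3% of members after thinning, close to the 24.8% of Cd3-positive cells, whereas *Trbc2* was seen in 10.9% against 38.2%, and *Trac* in 0.652% against 13.4%. *Trbc1* and *Trbc2* are near-copies, and 8.03% of their 3′ windows were shared, so a part of their counts cannot be split between them. Of 16 T cell genes, *Cd4*, *Cd8a*, *Cd8b1*, *Cd5*, *Cd6* and *Tcrg-C2* had no UMI in members, and *Tcrg-C1* had 1. But *Cd27* had 87 UMIs, *Trdc* 27, *Cd247* 18 and *Bcl11b* 6. Without thinning, 65.7% of members held a UMI of that list, which includes the beta constant genes. The 250 members with such a UMI at full depth, which are part of the 460, had levels of 18.8 for *Xcl1*, 24.5 for *Tyrobp* and 7.01 for *Klrd1*, against 18.1, 24.98 and 7.10 over all members. Their *Gzmb* level was 6.92 (6.29 to 7.59) against 8.30 (7.77 to 8.85), and their *Klk1* level 122 against 94.4.

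Against the Cd3-positive cells, 6010 genes with at least 20 UMIs over both groups were compared, without the rule genes. 52 (0.865%) were at least 4-fold higher in members and 36 (0.599%) at least 4-fold lower, and the median log2 ratio of all genes was 0.15. Of the 52 higher genes, 46 had 3 or fewer UMIs in the Cd3-positive cells, so most rest on few counts. Only 2 of them belonged to the lists, *Eomes* and the integrin *Itgam* (20 and 2 UMIs). *Eomes* had 68 UMIs in members and 4 in Cd3-positive cells, a log2 ratio of 2.81 (1.39 to 4.73), and 2.90 without cells over 5000 UMIs. *Nrarp*, a target of Notch signalling, had a log2 ratio of 2.55 (1.26 to 4.22). *A630072M18Rik* led the order with 47 UMIs against 1 (log2 ratio 4.28, 1.73 to 9.61). Others in the first 15, such as *Klk1b8* (3.48), came from the deep cells, and without those its log2 ratio was -2.52.

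Of the 36 lower genes, 9 belonged to the lists (*Il7r*, *Trac*, *Tcrg-C1*, *Trdc*, *Cd8a*, *Cd8b1*, *Bcl11b*, *Rora* and *Rgs5*). *Il7r*, the IL-7 receptor of T cells and helper-like innate cells, had 3 UMIs in members and 51 in Cd3-positive cells (log2 ratio -5.37, -7.69 to -3.74). *Trac* had 9 and 58 (-3.97, -5.17 to -2.94). *Cd8a* and *Cd8b1* had 0 in members and 39 and 38 in Cd3-positive cells, so with 3 counts in place of 0 the log2 ratios are at most -4.98 and -4.94. *Cd163l1*, a scavenger receptor of gamma-delta T cells, had 0 and 27 UMIs (at most -4.45), and *Ly6c2* a log2 ratio of -3.49 (-4.58 to -2.53). T cell genes were partly fixed by the rule for the Cd3-positive cells, so this side describes the choice. The secretory genes *Dcpp1* (-2.97) and *Dcpp3* (-2.40) were lower only through the deep cells. A single Cd3-positive cell held 75.5% of that group's *Dcpp1*, and without cells over 5000 UMIs the log2 ratios were 0.05 and 0.13. *Rgs5*, a pericyte gene, also rested on 1 cell with 96.0% of the UMIs.

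**Figure D4:**
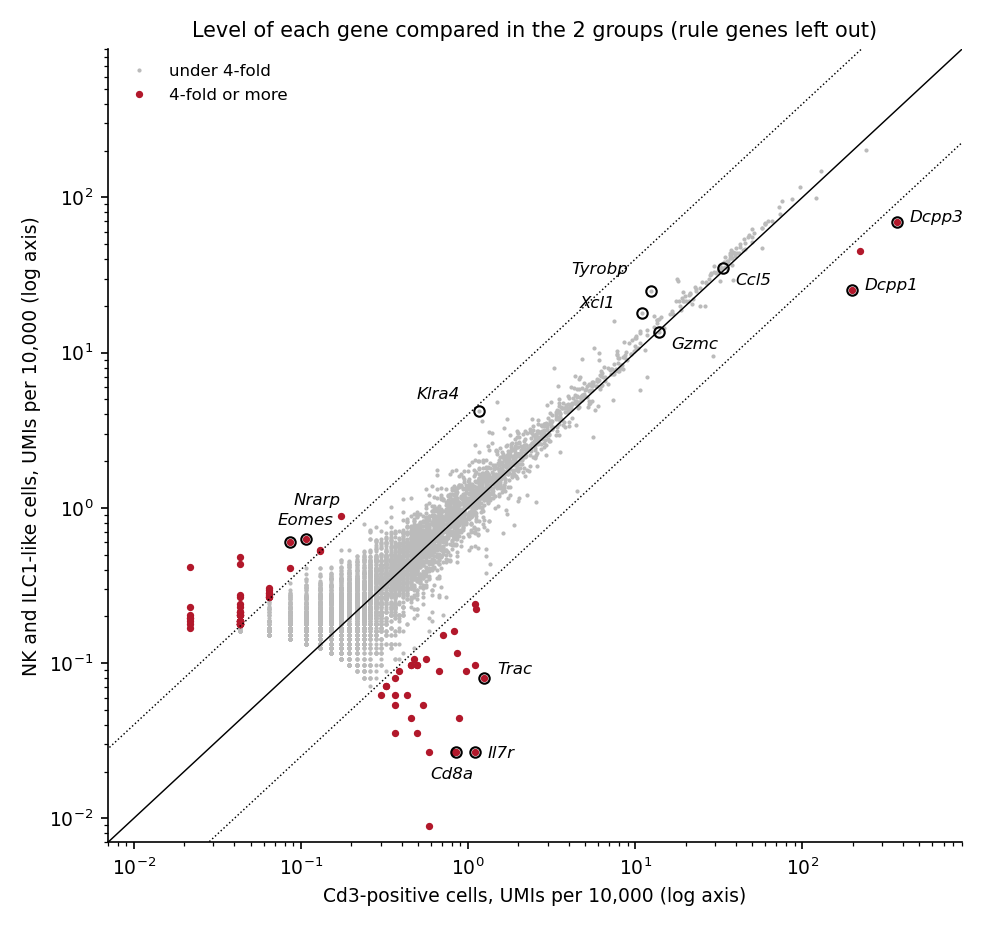
Level of each of the 6010 genes compared in Cd3-positive cells (horizontal) and NK and ILC1-like cells (vertical), in UMIs per 10000 on log axes, with 0 drawn as 3 counts. The solid line marks equal levels and the dotted lines a 4-fold difference. *Eomes* lies above the upper dotted line, *Il7r*, *Cd8a* and *Trac* below the lower one, and *Gzmc* and *Ccl5* lie near equality.

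By list, the NK set and the Ly49 list share 3 genes. The Ly49 list holds 9 *Klra* genes with *Klre1* and *Klri2*. The 8 of these 11 with enough UMIs, 6 of them *Klra* genes, had a median log2 ratio of 1.13, from 0.52 (*Klra9*) to 1.85 (*Klra4*, 1.44 to 2.28), and none reached 4-fold. The counting interval lay above 0 for 7 of the 8, against 9.2% of all genes compared. The 13 activating receptors and adaptors had a median of 0.72, with 7 intervals above 0, among them *Klrc2* (1.74, 0.83 to 2.79) and *Tyrobp* (1.01, 0.88 to 1.15). The 10 effector genes compared had a median of 0.44 and 6 intervals above 0, with *Prf1* at 1.24 (0.63 to 1.90) and *Gzmc* at -0.03 (-0.17 to 0.10). For 8 cytokines and chemokines the median was 0.29, with 4 above 0, and for 15 transcription factors 0.54, with 7 above 0 and 1 below (*Rora*, -2.39, 3.38% of all genes being below). The NK set had a median of 1.58 over 9 genes, with 6 above 0, and the ILC1 and residency set -0.25 over 10, with 2 above (*Rgs1*, *Inpp4b*) and 4 below (*Il7r*, *Cxcr6*, *Tmem176a*, *Tmem176b*). *Cxcr6* was seen in 3.91% of members and 15.9% of Cd3-positive cells (log2 ratio -1.74, -2.34 to -1.14). The homing list had a median of 0.16 over 15 genes, with *Ccr2* at 1.34 (0.78 to 1.95) and *Cxcr3* at -1.93 (-3.01 to -0.90).

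Without cells over 5000 UMIs these medians were lower, at 0.86 for the Ly49 list, 0.47 for activating receptors, 0.28 for effectors, 0.14 for cytokines and chemokines, 1.29 for the NK set and -0.47 for the ILC1 and residency set, beside 0.09 for all genes. The intervals above 0 then numbered 6 of 8 genes of the Ly49 list, 5 of 13 activating receptors and adaptors and 4 of 10 effectors, against 4.09% of all genes. Intervals below 0 numbered 5 of 10 in the ILC1 and residency set, against 3.28% of all genes. Intervals below 0 numbered 2 of 10 effectors and 2 of 8 cytokines and chemokines. For transcription factors the median was then 0.41, with 3 of 15 intervals above 0 in place of 7. The median of the homing list turned from 0.16 to -0.06, with 3 intervals above 0 and 4 below. *Ccl5* turned from 0.07 to -0.18, and *Gzmc* moved from -0.03 to -0.42.

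Against the 74 stricter T cells, 192 of 5482 genes (3.5%) were at least 4-fold higher in members and 49 (0.894%) lower. The median log2 ratio was 0.23. This comparison was not repeated without the deep cells, so the part of deep cells in its counts and ratios was not tested. The stricter T cells held 26 UMIs of the pericyte gene *Rgs5*, against 6 in members. Some ratios rest on few UMIs in the stricter T cells, such as *Prf1* (5 UMIs) and *Klre1* (8 UMIs). Among granule genes, *Gzma* was at 3.19 (2.43 to 4.07), *Gzmc* at 2.76 (2.33 to 3.23) and *Prf1* at 2.54 (1.29 to 4.19), while *Gzmb* was at 0.94 (0.64 to 1.26) and did not reach 4-fold. *Klre1* (3.36, 2.37 to 4.58), *Klra8* (2.99), *Klra4* (2.83) and *Tyrobp* (2.32, 2.04 to 2.61) were also past 4-fold, as was *Irf8* (2.50). *Il7r* was at -6.05 (-8.39 to -4.40), *Bcl11b*, a T cell commitment factor, at -3.77 and *Cxcr6* at -2.28 (-2.94 to -1.63).

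Proliferation genes were seen in few members. 16 members (3.48%, 2.00 to 5.59%) had 2 or more UMIs of *Mki67*, *Top2a*, *Birc5*, *Cdk1* and *Ccnb2* together at 1000 UMIs, against 4.46% (1.81 to 8.97%) of Cd3-positive cells, 1.99% (1.20 to 3.09%) of macrophages and 0.0748% of Mucl2-rich cells. The intervals of the 3 immune groups overlap. Early-response genes, which rise during tissue digestion, had a median log2 ratio of -0.07 to the Cd3-positive cells over 14 genes, and of 0.23 without cells over 5000 UMIs. *Junb* was seen in 75.9% of members, 75.2% of Cd3-positive cells and 77.9% of macrophages, whereas *Atf3* was seen in 11.7%, 15.9% and 74.7%. Genes tied to TGF-beta signalling were seen in part of the members, *Smad7* in 15.7% and *Skil* in 14.6%, against 13.4% each in Cd3-positive cells and 3.66% and 28.7% in macrophages. That list had a median log2 ratio of 0.24 over 8 genes, and of 0.05 without cells over 5000 UMIs, with none of them 4-fold higher or lower in the full comparison.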

How the data were processed

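The authors deposited 1 matrix of UMI counts per gene and cell (10x Genomics) with its barcode and gene lists. Per the labels and the submitters' processing notes it was made with Cell Ranger 6.0.1 on mm10 and analysed with Seurat 4.1.1. Which annotation was used is not given in the sources used here. All 4 samples were pooled without a map from cells to samples, so no replicate error exists. All 15707 cells and 32285 listed genes were read, and no further filter was applied. The members and all gene lists were chosen with earlier results of these data known.

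Levels are summed counts per 10000 with exact 95% Poisson intervals. Shares have exact Clopper-Pearson 95% intervals after each cell was thinned to 1000 UMIs with a fixed seed. Ratios have conditional exact binomial intervals, with a count of 0 replaced by 3 counts. Genes with at least 20 UMIs over both groups were compared at 4-fold. The genes named were those of the rule, those of the lists, the 15 with the largest ratio to Cd3-positive cells in each direction and the 15 with the largest ratio to all other cells at 100 UMIs or more in members, ribosomal and mitochondrial genes left out. Single values of some list genes are not reported here. Genes named in the splits of members were chosen after their values were seen. On simulated counts for the comparison with Cd3-positive cells, the ratio intervals held the true value for 96.6% of 5527 genes. These counts were Poisson draws from summed profiles, without UMIs clustered in few cells. So this share does not say how the intervals hold for clustered genes. All 28 genes looked up by Ensembl ID were found in GENCODE M21. Intervals came from scipy 1.17.1, tables were handled by pandas 2.3.3 and numpy 2.4.6 under Python 3.11.15, and plots were drawn in matplotlib 3.10.9.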

Additional observations from a re-analysis of the deposited data

How the results depend on the processing

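Leaving out a replicate was not possible, since no cell could be assigned to a sample, and no doublet caller was run. No paired analysis was possible because the result comes from no test and the samples form 1 group. The number of members stayed within 1.5 times the 460 under every alternative tried. Each of these alternatives narrowed the rule, so the number could only fall. No looser rule was tried, and 344 further cells failed only the receptor condition. It was 350 with at least 3 *Nkg7* UMIs, 354 with *Mucl2* under 10%, 447 with no *C1q* UMI, 456 when cells also needed 200 genes and no more than 20% of UMIs from mitochondria, and 434 without cells over 5000 UMIs. The count of genes at least 4-fold higher than in Cd3-positive cells (52) was unstable. It was 26 with at least 3 *Nkg7* UMIs, 33 without cells over 5000 UMIs, 27 with the 10 most abundant transcripts left out of the total, 8 with at least 50 UMIs over both groups, 17 with T cells taken from 1 *Cd3* UMI, 192 with the stricter T cells, 13 without members with a T cell receptor UMI and 426 at 2-fold. The count of lower genes (36) was 23 without cells over 5000 UMIs, 12 with at least 50 UMIs, and 178 at 2-fold. The cells over 5000 UMIs and the stricter T cells were alternatives chosen after the data were seen. The share of members with both marker sets (51.5%) was 24.1% at 500 UMIs, 76.7% without thinning, 56.2% without members with a T cell receptor UMI, and 17.4% without genes near the macrophage level. The share with a T cell receptor UMI (30.4%) was 16.5% at 500 UMIs and 54.3% without thinning.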

Other observations

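*Ighm*, the constant part of the IgM heavy chain, was seen in 11.1% of members after thinning, 7.01% of Cd3-positive cells, 13.1% of macrophages and 0.494% of Mucl2-rich cells, while *Cd79a* and *Ms4a1* had no UMI in members. *Igha* was seen in 2.83% of members, 3.18% of Cd3-positive cells and 0.314% of macrophages, although *Jchain* and *Mzb1* had no UMI in members. *Pecam1*, an adhesion molecule of endothelium and leukocytes, was seen in 3.91% of members and 0.105% of macrophages, and *Kit* in 1.30% of members. *Ctla2a*, a protease inhibitor of activated lymphocytes, was seen in 63.0% of members, 39.5% of Cd3-positive cells and 0.105% of macrophages. *Cxcl10*, an interferon-induced chemokine, was seen in 11.7% of members, 9.55% of Cd3-positive cells and 23.5% of macrophages.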
